A study of Homo sapiens with 6 samples.

Results

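The 46 genes described here encode the translation initiation and elongation factors of human cells, chosen by gene name from the 50868 genes of the deposited table. They fall into eIF2 (3 genes), its exchange factor eIF2B (5), eIF3 (13), eIF4 with its binding proteins (12), the other initiation factors (8) and the elongation factors (5). All 46 names were found, and all 46 had enough counts to be tested. Their levels were compared between 2 groups of 3 RNA sequencing libraries from KYSE-150, an established line of human oesophageal squamous carcinoma cells grown in RPMI medium with fetal bovine serum. The control libraries are titled nc and called wild type in the series text, and the others, called siZNF514, are labelled as a ZNF514 knockout by siZNF514. The name siZNF514 is usual for a small interfering RNA, which lowers a transcript and leaves its gene in place, and the sources used here do not say whether the nc cells received a control RNA. No label ties the replicates of a group to separate cultures, and the p-values therefore cover the spread among these libraries alone, which can be technical.

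Translation of most cellular messages begins when the eIF4F complex binds the cap at the 5′ end of the message. eIF4F joins the cap-binding protein eIF4E, the scaffold eIF4G and the helicase eIF4A, and the eIF4E-binding proteins compete with eIF4G for eIF4E. The small ribosomal subunit arrives with eIF1, eIF1A, eIF3, eIF5 and the initiator tRNA, which eIF2 carries with GTP. eIF2 is recharged with GTP by eIF2B, and stress kinases that phosphorylate eIF2 hold eIF2B in check. During elongation, eEF1A delivers the aminoacyl-tRNAs, the eEF1B subunits recharge eEF1A with GTP, and eEF2 moves the ribosome along the message. Messages for many of these factors belong to the TOP class, which begins with a C followed by an unbroken run of C and T bases and whose translation depends on mTOR signalling and the RNA-binding protein LARP1.

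The start of the transcript was therefore read from the RefSeq promoter sequences (GRCh38.p14), in which 38 of the 46 genes were matched by symbol. EEF1D, EIF2S2, EIF3A, EIF3E, EIF3G, EIF3H, EIF3L and EIF4EBP1 were not. The windows shown run from 15 bases before the annotated start to 15 bases from it, 5′ to 3′ on the strand of the gene. Capitals mark the run of C and T bases that begins with a C at the annotated first base, where it is at least 5 bases long. The first 5 windows are those of EEF1A1 and EEF2, the elongation factors with the highest levels, EIF3D and EIF4B of the initiation factors, and EIF2S3, the only gene with the run that fell. EIF3C and EIF4E2, which had the largest rises of all the factors, and EIF2B1, which fell, are shown as genes without it, in lower case throughout, and the EIF4E2 window is 1 of 2 annotated starts, neither of which has the run.
EEF1A1: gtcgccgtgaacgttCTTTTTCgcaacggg
EEF2: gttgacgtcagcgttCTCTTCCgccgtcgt
EIF3D: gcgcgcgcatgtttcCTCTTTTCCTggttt
EIF4B: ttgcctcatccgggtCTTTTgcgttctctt
EIF2S3: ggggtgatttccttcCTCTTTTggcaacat
EIF3C: ctctgtcccacccccgtggcaggcagccct
EIF4E2: ggtggagcggaagtcactccctgaggcagt
EIF2B1: gaggggtacggaagtgcgccggaagtgggg
These windows lie at chr6:73521018-73521047 (EEF1A1, minus strand), chr19:3985449-3985478 (EEF2, minus), chr22:36529152-36529181 (EIF3D, minus) and chr12:53006441-53006470 (EIF4B, plus). The other 4 lie at chrX:24054941-24054970 (EIF2S3, plus), chr16:28688543-28688572 (EIF3C, plus), chr2:232550674-232550703 (EIF4E2, plus) and chr12:123633672-123633701 (EIF2B1, minus). Each spans the start that RefSeq annotates, with 15 bases before it and 15 from it. The windows of EEF1A1, EIF3D, EIF4B, EIF2S3, EIF4E2 and EIF2B1 lie wholly inside the deposited loci of these genes. An annotated start need not be the start used in these cells, so a match describes the letters only.

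Of all 35116 start windows in the table, 4.07% held such a run, as did 5.14% of 27305 genes at any of their starts. Those genes take in many that were not tested here. Among tested genes with a matched start, 736 held the run and 9270 did not. Among the factors the run was found in 11 of the 38 matched genes (28.9%), all of them tested. By group it was held by 3 of 4 matched elongation factors, 4 of 8 matched eIF3 subunits, 2 of 11 matched eIF4 genes, 1 of 2 matched eIF2 subunits, 1 of 8 other initiation factors and none of the 5 eIF2B subunits. Beside the windows shown, the genes were EEF1B2, EIF2A, EIF3F, EIF3K, EIF3M and EIF4A2.

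The libraries held between 12175259 and 14318909 counts. Levels are given as CPM, counts scaled to a common library size with the trimmed-mean (TMM) factors of edgeR, and changes as log2 fold changes of siZNF514 over nc with their standard error (SE). A gene is said to rise or fall where the edgeR quasi-likelihood test gave an adjusted p under 0.05, with Benjamini-Hochberg adjustment over the 14250 genes tested. The targeted gene, ZNF514 (chr2:95147330-95165413, minus strand), had counts of 239, 273 and 261 in nc and 64, 82 and 63 in siZNF514, and its CPM fell to 27.3% of nc (log2 fold change -1.87, SE 0.14, edgeR adjusted p = 5.77e-05). Of 10 squamous epithelial markers, 9 were at 1 FPKM or more in every library and SOX2 was not. Their summed level was 337 to 362 FPKM in nc and 248 to 278 in siZNF514. The 5 fibroblast markers summed to 0.234 to 0.397 FPKM in nc and 0.0762 to 1.71 in siZNF514, where replicate 3 held 112 counts of COL3A1 against 0 in the other two. The leukocyte markers summed to 12.6 to 15.2 FPKM in nc and 10.0 to 12.4 in siZNF514, where LYZ had 49 counts in replicate 3 and 0 in the other two. The 4 endothelial markers summed to at most 0.295 FPKM in any library. Without siZNF514 replicate 3, 24 of the factors rose and 6 fell, against 24 and 7 with it. The mitochondrially encoded genes held 4.84% to 4.93% of counts in nc and 3.89% to 3.98% in siZNF514, and their part in the results was not tested.

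Of the 46 factors, 24 rose and 7 fell in siZNF514 cells, and 15 did not pass the test. Among all genes tested, 25.5% rose and 25.1% fell, and among the 6540 genes with at least the mean count of the lowest factor 38.6% rose and 22.4% fell. Either change was met by 50.6% of all genes and 61.0% of those 6540. The 24 that rose were 52.2% of the factors. Every siZNF514 library was above every nc library for 27 factors and below for 7, and the groups overlapped for 12. Over all tested genes the siZNF514 libraries were above in 30.0% and below in 30.3%, and over the genes of at least the lowest factor's depth 42.7% and 26.1%. The median log2 fold change of the factors was 0.25, against -0.01 over all genes tested. The changes were small, since none reached 2-fold and the largest was 0.82 on the log2 scale.

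The factors as a whole took 2.01%, 2.00% and 1.96% of all counts in nc and 2.18%, 2.20% and 2.25% in siZNF514, with no overlap between the groups. Scaling by total counts alone moved the median log2 fold change of all tested genes from -0.01 to -0.14, and that of the factors from 0.25 to 0.12. On that scale 20 factors rose and 9 fell, while over all genes 2493 rose and 4775 fell, in place of 3629 and 3583. As the libraries are bulk RNA, fewer cells of a kind and less RNA per cell cannot be told apart.

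**Figure D1:**
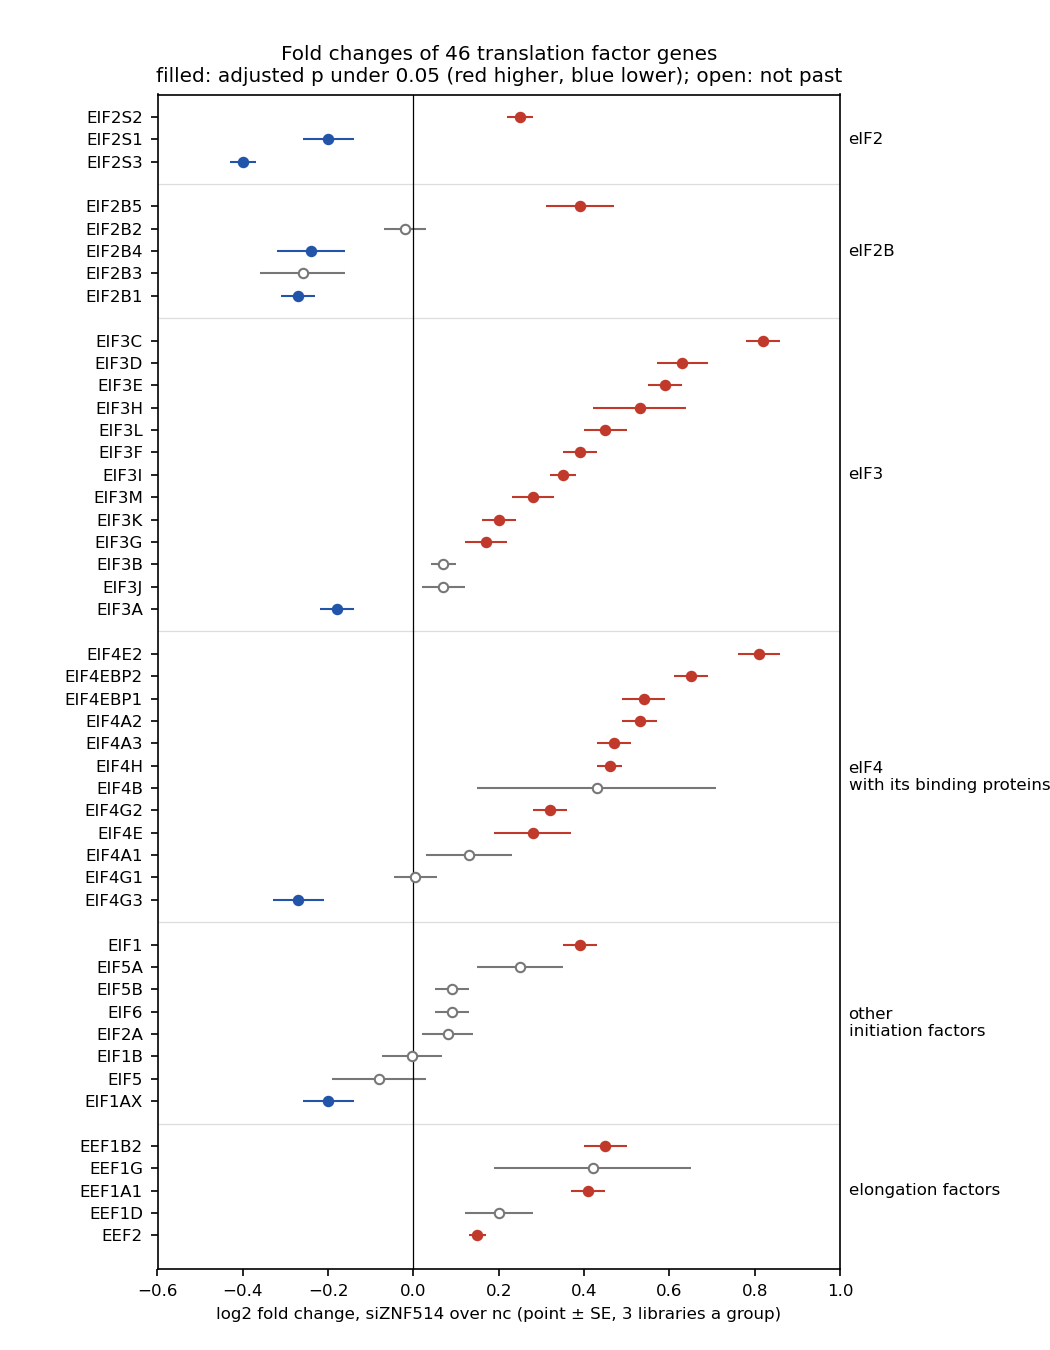
Log2 fold change of each of the 46 factors, siZNF514 over nc, as a point with its SE on the horizontal axis, grouped by complex, with 3 libraries a group; filled points passed the test, red for higher and blue for lower. The eIF3, eIF4 and elongation groups lie mostly to the right of 0, with 10 of 13, 8 of 12 and 3 of 5 genes higher, while eIF2 and eIF2B have points on both sides.

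The genes that rose and fell were counted by complex, beside 25.5% and 25.1% of all tested genes. Among the genes of at least the lowest factor's depth, 38.6% rose and 22.4% fell. The groups hold few genes, so 1 gene can move a share far. In eIF3, 10 of 13 subunits (76.9%) rose and 1 fell, with a median log2 fold change of 0.35. In the eIF4 group 8 of 12 genes (66.7%) rose and 1 fell, with a median of 0.44, and among the elongation factors 3 of 5 rose and none fell, with a median of 0.41. The medians of eIF2 and eIF2B were below 0, with genes on both sides. In eIF2 1 of 3 subunits rose and 2 fell (median -0.20), and in eIF2B 1 of 5 rose and 2 fell (median -0.24). These medians are the values of EIF2S1 and EIF2B4, and both calls were lost when any 1 nc library was left out. The other initiation factors had 1 rise, 1 fall and 6 that did not pass, with a median of 0.08. No test compares the complexes, since genes of a complex are not replicates of it. With total counts alone the medians were 0.23 for eIF3, 0.31 for eIF4, 0.28 for elongation, -0.33 for eIF2, -0.37 for eIF2B and -0.04 for the rest.

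eIF2 is made of an alpha, a beta and a gamma subunit, and the messages of its 3 subunits did not move together. EIF2S3 (chrX:24054716-24077971), which encodes the GTP-binding gamma subunit, was at 405, 408 and 416 CPM in nc and 316, 303 and 309.7 CPM in siZNF514, a fall by 0.40 on the log2 scale (SE 0.03, edgeR adjusted p = 9.63e-05). It had the lowest log2 fold change of all 46 factors, and its groups lay far apart. EIF2S1 (chr14:67359997-67386516), the alpha subunit whose phosphorylation slows initiation, was at 270.2, 259 and 263 CPM in nc against 238, 243 and 208, a log2 fold change of -0.20 (SE 0.06, edgeR adjusted p = 0.0314). Its groups did not overlap, but the call was lost when any 1 of the nc libraries was left out, with adjusted p between 0.0597 and 0.0939. EIF2S2 (chr20:34088298-34112332), the beta subunit, went the other way, from 354, 348 and 361 CPM to 411, 426 and 424 (log2 fold change 0.25, SE 0.03, edgeR adjusted p = 0.000806). Rows for its pseudogenes held counts equal to 30.6% of its own, so its reads may be divided among them. The 3 subunits summed to 1029, 1016 and 1040.2 CPM in nc and 966, 972 and 942 CPM in siZNF514, 93.3% of the nc level.

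eIF2B holds catalytic gamma and epsilon subunits and regulatory alpha, beta and delta subunits that sense phosphorylated eIF2. The alpha subunit gene EIF2B1 (chr12:123620406-123633766) was at 131, 132 and 129 CPM in nc and 108, 105 and 111 CPM in siZNF514, a log2 fold change of -0.27 (SE 0.04, edgeR adjusted p = 0.00165). EIF2B4, the delta subunit gene, was at 36.4, 37.0 and 39.4 CPM against 30.3, 29.9 and 35.0 (log2 fold change -0.24, SE 0.08, edgeR adjusted p = 0.0445). These 2 regulatory subunits were lower in every siZNF514 library, although for EIF2B4 the nearest libraries stood at 36.4 and 35.0 CPM and the call was lost when nc replicate 1, 2 or 3 or siZNF514 replicate 1 or 2 was left out, with adjusted p of 0.0735 to 0.136. The third regulatory subunit gene, EIF2B2, did not pass, with a log2 fold change of -0.02 (SE 0.05), and neither did EIF2B3 of the gamma subunit at -0.26 (SE 0.10, edgeR adjusted p = 0.0563). With total counts alone both passed, EIF2B3 at -0.39 (edgeR adjusted p = 0.0131) and EIF2B2 at -0.15 (edgeR adjusted p = 0.0394). Both passed on FPKM too, which is likewise scaled by the library total and so is not separate support. EIF2B3 passed as well with a mean count of at least 50, in the DESeq2 Wald test and without nc replicate 1. EIF2B5, the gene of the catalytic epsilon subunit, was at 67.6, 63.2 and 65.1 CPM in nc and 95.9, 80.2 and 80.2 CPM in siZNF514 (log2 fold change 0.39, SE 0.08, edgeR adjusted p = 0.00642). It was the only eIF2B gene to rise, but its value is uncertain. Its deposited locus (chr3:184135038-184684758) takes in 12 other genes with counts on the same strand, EIF4G1 among them, and on the FPKM values it did not pass, with adjusted p of 0.0504 to 0.0528.

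**Figure D2:**
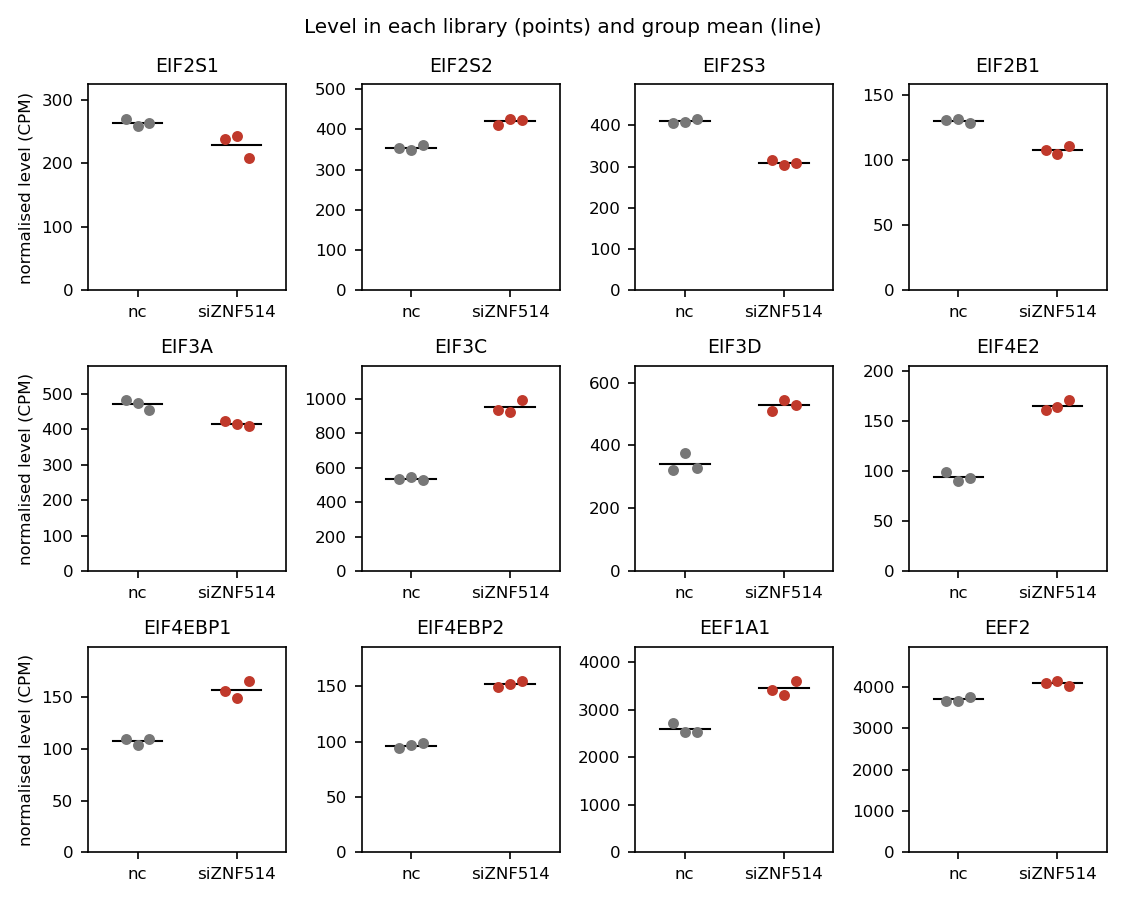
Level of 12 factors in CPM (vertical axis, from 0) in each of the 3 nc and 3 siZNF514 libraries, with a point for each library and a line at the group mean. EIF2S1, EIF2S3, EIF2B1 and EIF3A lie lower in siZNF514 and the other 8 lie higher, with no overlap between the groups in any of the 12.

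eIF3, the largest of the initiation factors, binds the small ribosomal subunit and holds the message and the other factors on it. Its summed level was 4272, 4255 and 4249 CPM in nc and 5543, 5562 and 5536 CPM in siZNF514, 130.3% of nc, with groups that stood far apart against their spread. The largest change of any factor was that of EIF3C (chr16:28688558-28735730), a core subunit, at 537, 547 and 532 CPM in nc and 936, 926 and 995 CPM in siZNF514 (log2 fold change 0.82, SE 0.04, edgeR adjusted p = 8.64e-06). Its near-identical neighbour EIF3CL, whose reads may be exchanged with it, changed alike, from 346, 346 and 349 CPM to 625, 604 and 638 (log2 fold change 0.84, SE 0.03, edgeR adjusted p = 6.01e-06). With the rows of EIF3C and its overlapping or near-identical genes added together, the log2 fold change was 0.83.

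EIF3D (chr22:36510850-36529436), the subunit that can bind the cap of some messages itself, was at 321, 375 and 329 CPM in nc and 510.0, 545 and 529.8 CPM in siZNF514 (log2 fold change 0.63, SE 0.06, edgeR adjusted p = 0.000228). EIF3E was at 340.1, 325 and 344 CPM against 516, 520.3 and 487, with a log2 fold change of 0.59 (SE 0.04, edgeR adjusted p = 4.53e-05). Neither gene's groups overlapped. The other 7 subunits that rose, EIF3H, EIF3L, EIF3F, EIF3I, EIF3M, EIF3K and EIF3G, had log2 fold changes from 0.53 down to 0.17. EIF3K and EIF3G at the lower end did not pass with total counts alone (0.07, edgeR adjusted p = 0.177, and 0.05, edgeR adjusted p = 0.441), and EIF3G also lost its call without nc replicate 1 or without siZNF514 replicate 2. EIF3F shares its sequence with a pseudogene row holding counts, and its copies came to 27.8% of its own counts. EIF3B and EIF3J each had a log2 fold change of 0.07 (SE 0.03 and 0.05) and did not pass.

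The exception was EIF3A, which encodes the largest subunit and a scaffold of the complex. EIF3A (chr10:119033670-119080823) was at 483, 473 and 455 CPM in nc and 424, 414 and 409 CPM in siZNF514, and fell by 0.18 on the log2 scale (SE 0.04, edgeR adjusted p = 0.00503). The groups did not overlap, and the call held under all 16 other settings. In the octamer that EIF3A forms with the c, e, f, h, k, l and m subunits, the other 7 subunits all rose, and the median of the 8 was 0.42. Of the b, g and i subunits 2 of 3 rose (median 0.17), and of d and j 1 of 2.

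The eIF4 group holds the cap-binding proteins, their scaffolds, the helicases and the inhibitors, and most of them rose. EIF4E2 (chr2:232550052-232583644), a cap-binding relative of eIF4E that is known for repressing messages, had the largest change, from 99.0, 90.1 and 93.0 CPM in nc to 161, 164 and 171 CPM in siZNF514 (log2 fold change 0.81, SE 0.05, edgeR adjusted p = 3.74e-05). The cap-binding protein itself, EIF4E, was at 40.7, 37.0 and 34.9 CPM against 50.3, 44.9 and 41.6, with a log2 fold change of 0.28 (SE 0.09, edgeR adjusted p = 0.0389). All 3 siZNF514 libraries were higher for both genes, by a wide margin for EIF4E2 and by under 1 CPM at the nearest pair for EIF4E. The EIF4E call was lost without nc replicate 2 or 3 or siZNF514 replicate 1 or 2 (adjusted p of 0.0708 to 0.112) and with total counts alone (0.15, edgeR adjusted p = 0.216). Rows of its pseudogenes held 83.4% of its own counts, and with copies and overlapping rows added its log2 fold change was 0.34 (edgeR adjusted p = 0.0035).

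Both inhibitors of eIF4E rose. EIF4EBP1 (chr8:38030341-38060365) was at 110.2, 104 and 109.8 CPM in nc and 156, 149.8 and 166 CPM in siZNF514 (log2 fold change 0.54, SE 0.05, edgeR adjusted p = 0.000213). EIF4EBP2 (chr10:70404379-70428618) was at 94.2, 96.9 and 98.5 CPM against 149, 152 and 155 (log2 fold change 0.65, SE 0.04, edgeR adjusted p = 3.74e-05). Their levels in nc and in siZNF514 were well apart in every library.

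The scaffolds split. EIF4G1, the main scaffold, was at 1008, 981 and 977 CPM in nc and 1063, 922 and 990.4 CPM in siZNF514, with overlapping groups and a log2 fold change of 0.0044 (SE 0.05, edgeR adjusted p = 0.95). Its relative EIF4G3 was at 92.5, 90.1 and 88.4 CPM against 80.5, 72.4 and 71.7, and fell by 0.27 on the log2 scale (SE 0.06, edgeR adjusted p = 0.00795). EIF4G3 was the only gene of the group to fall. EIF4G2, which lacks the eIF4E-binding part and serves cap-independent initiation, rose (log2 fold change 0.32, SE 0.04, edgeR adjusted p = 0.000869).

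Of the helicases, EIF4A2 was at 315, 307 and 290.5 CPM in nc and 439.7, 446 and 429 CPM in siZNF514 (log2 fold change 0.53, SE 0.04, edgeR adjusted p = 7.62e-05). EIF4A1 was at 349, 399 and 374 CPM against 353, 458 and 414, with overlapping groups (log2 fold change 0.13, SE 0.10, edgeR adjusted p = 0.307). It passed without siZNF514 replicate 1 (0.23, edgeR adjusted p = 0.0408), and its reads may be shared with the readthrough row SENP3-EIF4A1. EIF4A3, the helicase of the exon junction complex, and EIF4H, which stimulates eIF4A, rose with log2 fold changes of 0.47 and 0.46.

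EIF4B, another helper of eIF4A, had the largest SE of all the factors. It was at 367, 534 and 235 CPM in nc and 430.3, 487 and 608 CPM in siZNF514, with overlapping groups and a log2 fold change of 0.43 (SE 0.28, edgeR adjusted p = 0.238). Without nc replicate 2, the highest of its group, it passed, at 0.76 (edgeR adjusted p = 0.0332). The row of its pseudogene EIF4BP7 was steady within groups, at 119.5, 125 and 123 CPM in nc and 170.4, 156 and 171 CPM in siZNF514 (log2 fold change 0.44, SE 0.05, edgeR adjusted p = 0.000478). With its copies and overlapping rows added, EIF4B remained at 0.43 and did not pass (edgeR adjusted p = 0.104).

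For 5 pairs of related factors the ratio of their counts was taken within each library, where no scaling between libraries enters. In the pairs EIF4A2 over EIF4A1 and EIF4E2 over EIF4E the less canonical relative gained. The log2 ratio of EIF4A2 to EIF4A1 was -0.30 ± 0.13 in nc and 0.11 ± 0.19 in siZNF514 (SD, n = 3 each), a difference of 0.41, and that of EIF4E2 to EIF4E was 1.33 ± 0.07 against 1.86 ± 0.18, a difference of 0.54. For EIF4G3 over EIF4G1 and EIF1B over EIF1 the ratio was lower instead. The first went from -3.45 ± 0.01 to -3.73 ± 0.06, a difference of -0.28, and the second from -1.75 ± 0.09 to -2.15 ± 0.10, a difference of -0.39. In these 4 pairs the groups did not overlap, and the exact two-sided permutation test returned p = 0.1, which is as low as 6 libraries can reach (0.125 after Benjamini-Hochberg adjustment over the 5 pairs). EIF4EBP2 over EIF4EBP1 differed by 0.11, with overlapping groups and p = 0.2 in the same exact permutation test.

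**Figure D3:**
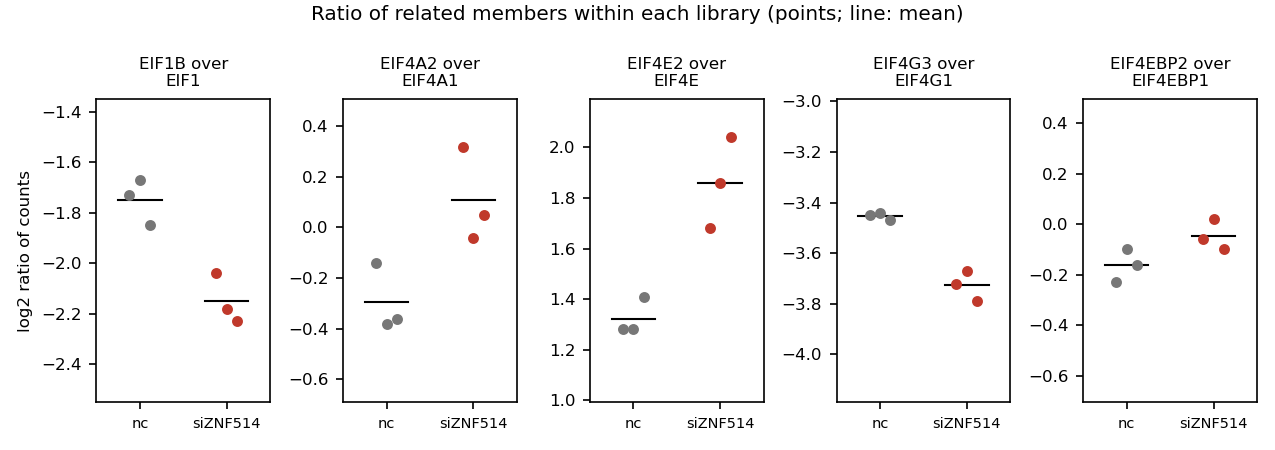
Log2 ratio of the counts of 2 related factors (vertical axis, not from 0) in each of the 3 nc and 3 siZNF514 libraries, with a point for each library and a line at the mean. The ratios of EIF4A2 to EIF4A1 and EIF4E2 to EIF4E lie higher in siZNF514 and those of EIF1B to EIF1 and EIF4G3 to EIF4G1 lower, without overlap.

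Among the other initiation factors, most did not pass the test. EIF1, which guards the choice of the start codon, was at 141, 142 and 141 CPM in nc and 178, 190.1 and 189.6 CPM in siZNF514 (log2 fold change 0.39, SE 0.04, edgeR adjusted p = 0.00034). Its close relative EIF1B was at 42.4, 44.8 and 39.1 CPM against 43.4, 42.1 and 40.5, with overlapping groups (log2 fold change -0.0035, SE 0.07). EIF1AX, which works with EIF1 in scanning, was at 128, 113 and 124 CPM in nc and 107, 108 and 102 CPM in siZNF514, a log2 fold change of -0.20 (SE 0.06, edgeR adjusted p = 0.0276). This call did not hold throughout. It was lost with a block for the replicate number (edgeR adjusted p = 0.0517), when any library but nc replicate 2 was left out (adjusted p of 0.0619 to 0.0928), and with its copies and overlapping rows added (log2 fold change -0.13, edgeR adjusted p = 0.0745).

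EIF5A, whose hypusine-bearing protein helps ribosomes through hard stretches, was at 719.5, 787 and 611 CPM in nc and 748, 869 and 894 CPM in siZNF514, with overlapping groups (log2 fold change 0.25, SE 0.10, edgeR adjusted p = 0.0826). With its copies added it passed, at 0.26 (edgeR adjusted p = 0.037), and it also passed without nc replicate 2 or without siZNF514 replicate 1, at 0.33. EIF5B and EIF6, which act at the joining of the subunits, each had 0.09 (SE 0.04), EIF2A had 0.08 (SE 0.06) and EIF5, which triggers GTP hydrolysis by eIF2, had -0.08 (SE 0.11). None of these 4 passed.

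The elongation factors deliver tRNAs and move the ribosome. EEF2 (chr19:3976056-3985469) was at 3652, 3666 and 3759 CPM in nc and 4096, 4141 and 4026 CPM in siZNF514, a log2 fold change of 0.15 (SE 0.02, edgeR adjusted p = 0.000737). The groups did not overlap, but with total counts alone the log2 fold change was 0.02 (edgeR adjusted p = 0.403). EEF1A1 (chr6:73515750-73523797) was at 2726, 2539 and 2523 CPM against 3418, 3309 and 3605 (log2 fold change 0.41, SE 0.04, edgeR adjusted p = 0.000229). Its own row does not hold most of its family's reads. The 39 rows of its copies held 341% of its counts, most of them on EEF1A1P5, which was at 7747, 7834 and 7835 CPM in nc and 10650.4, 10700.2 and 11049 CPM in siZNF514 (log2 fold change 0.47, SE 0.02, edgeR adjusted p = 5.3e-06). With all rows added the log2 fold change of EEF1A1 was 0.45.

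The eEF1B subunits recharge eEF1A. EEF1B2 (chr2:206159585-206162928), the alpha subunit with exchange activity, was at 152, 162 and 155 CPM in nc and 205, 209.5 and 227 CPM in siZNF514, a rise without overlap (log2 fold change 0.45, SE 0.05, edgeR adjusted p = 0.00043). EEF1D, the delta subunit, was at 149.9, 148 and 145 CPM against 172, 149 and 187 (log2 fold change 0.20, SE 0.08, edgeR adjusted p = 0.0755). The groups of EEF1D overlapped through siZNF514 replicate 2, and without that library it passed, at 0.29 (edgeR adjusted p = 0.00885).

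EEF1G, the gamma subunit, shared its counts with an overlapping row to an extent that differed between libraries. EEF1G (chr11:62559601-62574086) was at 554, 539 and 529 CPM in nc and 451, 799 and 914 CPM in siZNF514, where 1 library lay below the controls and the others far above them (log2 fold change 0.42, SE 0.23, edgeR adjusted p = 0.169). The row AP002990.1, which overlaps EEF1G, held 760, 929 and 1120 counts in nc and 6322, 1229 and 229 in siZNF514. It took 9.62%, 10.8% and 14.3% of the counts of the pair in nc, but 52.4%, 10.5% and 1.80% in siZNF514. Added together, the pair was at 613, 605 and 618 CPM in nc and 947, 893 and 931 CPM in siZNF514, which are narrow groups that do not overlap. In the fit with rows added, an alternative chosen after the rows had been seen, EEF1G rose by 0.60 (SE 0.03, edgeR adjusted p = 1.79e-05), and without siZNF514 replicate 1 its own row passed at 0.67 (edgeR adjusted p = 0.000484).

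**Figure D4:**
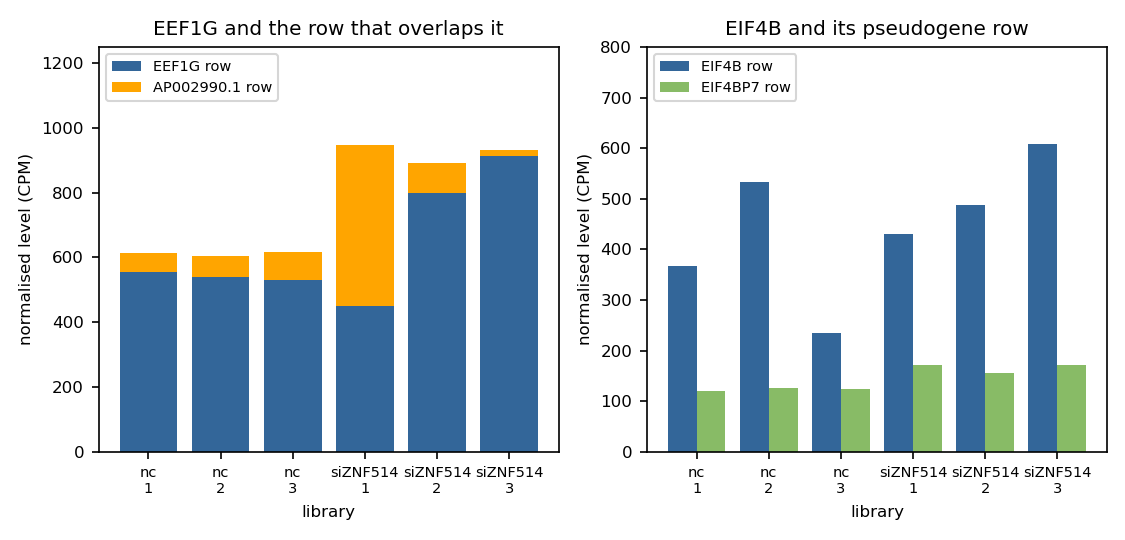
Level in CPM (vertical axes, from 0) in each of the 6 libraries for the EEF1G row with the overlapping AP002990.1 row stacked on it, and for the EIF4B row beside its pseudogene row EIF4BP7. The stacked bars reach 605 to 618 CPM in nc and 893 to 947 CPM in siZNF514 while the EEF1G part alone is lowest in siZNF514 replicate 1, and EIF4B varies within both groups more than EIF4BP7 does.

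Rows of copies and overlapping genes were added for 28 factors, for 11 of them with at least 10% of their own counts. For EIF2A, EIF4A3, EIF4E2, EIF4EBP1 and EIF4EBP2 the added rows held no counts. Of overlapping genes, only same-strand readthrough rows and rows named after clones were added. EIF2B5 thus gained 1 row (4.92% of its counts), and its other overlaps were not tested. With rows added 26 factors rose and 6 fell, EEF1G and EIF5A passing and EIF1AX no longer passing. For 25 factors a gene with counts also lies on the opposite strand, and the sources used here do not say whether counting used the strand, so such reads cannot be told apart.

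Per length, in FPKM, the factors spanned a wide range in nc, from 2.44 for EIF4E to 718 for EEF2. EEF1A1 came second at 210.4, then EIF4H at 201 and EIF3I at 192. The subunits of 1 complex were not at 1 level, since eIF3 ran from 9.59 (EIF3F) to 192 (EIF3I), eIF2 from 35.4 (EIF2S1) to 139 (EIF2S2) and eIF2B from 3.67 (EIF2B4) to 29.8 (EIF2B1). The cap-binding protein EIF4E stood lowest of all 46, below its relative EIF4E2 at 7.78 and the inhibitors EIF4EBP1 at 105 and EIF4EBP2 at 13.9. In siZNF514 the level of EIF4E was 2.72 FPKM, and those of EIF4E2, EIF4EBP1 and EIF4EBP2 were 12.5, 140.0 and 20.0. Each of these levels rests on the deposited gene length, and for EIF4E, EEF1A1 and EIF3F also on how reads were divided with copies.

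Set against the start windows shown above, 8 of the 11 factors with the run of C and T bases rose and 1 (EIF2S3) fell, with a median log2 fold change of 0.39. Of the 27 matched factors without it, 10 rose and 5 fell, with a median of 0.09. Over all tested genes with a matched start, 35.3% of the 736 with the run rose (median 0.08), and 25.8% of the 9270 without it (median -0.01). Of the same genes, 155 of the 736 with the run fell, and 2444 of the 9270 without it. The factors with the largest rises, EIF3C and EIF4E2, were without the run in these windows, as were EIF4EBP2 and EEF1G. These are counts of letters and calls, with no test of the difference.

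Of 51 further genes of the pathway, 47 were tested, and 14 rose and 12 fell, where 25.5% of all tested genes rose and 25.1% fell. With total counts alone 9 rose and 13 fell. The named genes below kept their calls under every setting tried, except EIF2AK1, EIF2AK3, EIF2AK4, DENR and EEF1E1. All 6 genes that set the phosphorylation of eIF2 changed, against 50.6% of all tested genes. Among genes of at least the lowest factor's depth, which EIF2AK3 did not reach, the share was 61.0%. EIF2AK2, the kinase PKR that responds to double-stranded RNA, was at 181, 183 and 189 CPM in nc and 98.6, 97.3 and 92.9 CPM in siZNF514, and fell by 0.94 on the log2 scale (SE 0.04, edgeR adjusted p = 1.3e-05). EIF2AK3, the kinase PERK of the endoplasmic reticulum, also fell (-0.30, edgeR adjusted p = 0.0273), a call lost with the replicate block (edgeR adjusted p = 0.0557) and without any 1 library but nc replicate 3 (adjusted p of 0.0656 to 0.086). The kinases EIF2AK1 (0.17) and EIF2AK4 (0.25) rose, as did the phosphatase subunits PPP1R15A (0.29) and PPP1R15B (0.64), which reverse their work, though EIF2AK1 and EIF2AK4 did not pass with total counts alone (0.05 and 0.13). PPP1R15B was at 74.2, 74.6 and 83.9 CPM in nc and 122, 127 and 115 CPM in siZNF514.

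Of 12 regulators of eIF4F and of the poly(A)-binding protein, 4 rose and 4 fell, beside 25.5% and 25.1% of all tested genes. LARP1, which binds the start of TOP messages, was at 355, 348 and 349 CPM in nc and 232, 237 and 213 CPM in siZNF514 (log2 fold change -0.62, SE 0.05, edgeR adjusted p = 7.37e-05). PDCD4, an inhibitor of eIF4A, was at 31.8, 40.6 and 35.4 CPM against 67.2, 63.7 and 57.7 (log2 fold change 0.80, SE 0.10, edgeR adjusted p = 0.000653). PABPC1, the main cytoplasmic poly(A)-binding protein and a TOP message itself, rose (0.47, edgeR adjusted p = 0.000275). The groups of LARP1 and PDCD4 were well separated.

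Among 15 tested genes that modify elongation factors 2 rose and 4 fell. For this and each class count below, 25.5% of all tested genes rose and 25.1% fell. EEF2KMT, a methyltransferase of eEF2, fell by 0.81 on the log2 scale (edgeR adjusted p = 0.000407). Of the genes that build the diphthamide of eEF2, DPH3 fell by 0.67 and DPH6 rose by 0.58. Another tested diphthamide gene also fell, and the rest did not pass. Of 6 tested termination and recycling genes, ETF1, the release factor, was at 268, 284 and 291 CPM in nc and 188, 177 and 162 CPM in siZNF514 (log2 fold change -0.68, SE 0.06, edgeR adjusted p = 0.000161), HBS1L rose by 0.48 and 4 did not pass. Of 8 tested relatives of the factors 3 rose, namely EIF3CL, DENR (0.19) and EEF1E1 (0.17), and 1 fell. The EEF1E1 call held under no other setting than relative log expression (RLE) scaling in edgeR, and was lost with any 1 library left out (edgeR adjusted p of 0.0623 to 0.13). The DENR call was lost with total counts alone (0.07), on FPKM, with the replicate block (edgeR adjusted p = 0.0518) and without nc replicate 1 or 2 or siZNF514 replicate 2. The gene that fell was MCTS1, the partner of DENR in reinitiation, at 79.6 ± 2.55 CPM in nc and 50.2 ± 4.55 CPM in siZNF514 (SD, n = 3 each; log2 fold change -0.66, SE 0.08, edgeR adjusted p = 0.000383).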

How the data were processed

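RNA of 3 nc and 3 siZNF514 libraries was analysed from 1 table. The deposited count columns hold whole-number counts per gene. The deposited FPKM columns equal the count divided by a gene length and the library total, to within 0.0791% for 22289 genes. Genome build hg38 and the tools StringTie 1.3.3b, HISAT2 2.0.4 and edgeR are listed without a role in the submitters' processing notes. The sources used here give no annotation release or strand setting. No per-sample column was left unused.

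Genes passing filterByExpr (minimum count 10, minimum total 15; 14250 genes, at least 99.8% of counts) were fitted with TMM scaling and the quasi-likelihood F test of edgeR 4.0.16 in R 4.3.3 (residual degrees of freedom: 4), and p-values were adjusted by Benjamini-Hochberg with a threshold of 0.05. The method was tested on simulated data with few changed genes at a common dispersion, which cannot decide between the scalings. SEs were taken as the absolute log2 fold change over the root of F. Replicates of a group differed by 7.43 to 9.69 chi-square per degree of freedom, so none was counted as a duplicate.

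The members and lists were chosen with earlier results of these data known. Values in every library are given for the targeted gene, up to 3 called members of each group with the largest change, paired relatives and all eIF2 and elongation members. Among further pathway genes, all those acting on eIF2 phosphorylation and up to 3 called genes with the smallest p in each other class are named. Library values beyond that rule (EIF4B, EIF5A, rows sharing reads, EEF1E1 and the levels of other genes) were chosen after they were seen. Alternatives were a replicate block, each library left out, relative log expression (RLE) scaling in edgeR, total counts alone, no filter and a mean count of at least 50. Others were the DESeq2 1.42.0 Wald test and limma 3.58.1 trend on log2(FPKM + 0.1) with pseudocounts 1 and 0.01. Copies and overlapping rows added was a further alternative, chosen after the data were seen.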

Additional observations from a re-analysis of the deposited data

How the results depend on the processing

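Of the 31 factors that rose or fell, 23 kept that call under all 16 other settings, and none of the 31 changed direction under any. With the replicate block 24 factors rose and 6 fell, with EIF1AX the only call lost. The numbers were not taken to pair the libraries. Deviations of log2 CPM from the group mean correlated at 0.007, 0.041 and -0.036 between same-numbered libraries. Between differently numbered libraries of the 2 groups they correlated at -0.063 to 0.053. Leaving out 1 library gave 4 to 6 factors that fell in place of 7, 1 to 2 in eIF2, 1 to 2 in eIF2B and 0 to 1 among the other initiation factors, where 1 to 2 rose. Without the filter on low counts 4 factors fell, 1 in eIF2, 1 in eIF2B and 0 among the other initiation factors. In eIF2B 4 genes fell with total counts alone and on FPKM, and 0 rose on FPKM. With copies added, 2 other initiation factors rose and 0 fell, and with the block 0 fell. With total counts alone and on FPKM 9 further pathway genes rose in place of 14. Reversals concerned only factors that did not pass. With total counts alone the log2 fold changes were -0.05 (EIF2A), -0.06 (EIF3B, EIF3J), -0.000037 (EIF4A1), -0.12 (EIF4G1), -0.03 (EIF5B) and -0.04 (EIF6). On FPKM they were -0.04, -0.05, -0.06, -0.0049 (-0.0045 with pseudocount 1), -0.12, -0.03 and -0.04, in the order EIF2A, EIF3B, EIF3J, EIF4A1, EIF4G1, EIF5B, EIF6. EIF1B was at 0.02 without the filter and EIF4G1 at -0.03 with a mean count of at least 50. With 1 library left out, EIF1B ranged from -0.05 to 0.05, EIF2B2 from -0.05 to 0.01, EIF4G1 from -0.04 to 0.06 and EIF5 from -0.16 to 0.04. The cause of these shifts was not tested. Every factor had a mean of at least 458 counts, and SEs reached 0.28 where a factor did not pass.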
